A study of Mus musculus with 8 samples.

Results

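Gata4 and 9 other genes used as markers or products of Sertoli cells were followed across spermatogonia labelled PRC1dKO or PRC1ctrl, after Polycomb repressive complex 1 (PRC1). They were picked by gene symbol and fall into 4 kinds: the transcription factors Gata4, Wt1, Sox8 and Sox9, the secreted products Amh, Inha and Clu, the hormone receptor Fshr with the tight junction protein Cldn11, and the homeobox gene Rhox5. All 10 symbols were found, with 1 transcript entry each, among 23343 symbols, and 9 of the 10 had enough reads to be tested. RNA came from the testes of C57BL/6 mice at postnatal day 7, in 4 groups of 2 libraries: cKit+ spermatogonia labelled PRC1dKO (cKit dKO), cKit+ spermatogonia labelled PRC1ctrl (cKit control), Thy1+ spermatogonia labelled PRC1dKO (Thy1 dKO) and Thy1+ spermatogonia labelled PRC1ctrl (Thy1 control). The labels name neither the alleles, a Cre driver nor the genotype of the controls, and they do not say whether replicates came from separate animals. The p-values therefore measure only the spread between these libraries, which may be technical.

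Sertoli cells are the somatic nurse cells of the seminiferous tubule. They surround the spermatogonia, supply them with growth factors such as GDNF and KIT ligand, and close the blood-testis barrier with tight junctions as puberty proceeds. WT1, SOX9 and GATA4 direct their formation in the fetal gonad, and GATA4 then activates genes such as Amh together with WT1 and the nuclear receptor NR5A1. GATA4 and inhibin alpha are also made by Leydig cells, the steroid-producing cells between the tubules, so neither marks Sertoli cells alone. PRC1 adds ubiquitin to histone H2A and represses developmental regulators, and it gathers at CpG-rich promoters. Thy1 sorting enriches undifferentiated spermatogonia, and Kit is carried by those that have begun to differentiate.

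The libraries held 6763908 to 10976869 counts, of which the 10 genes took 0.111% and 0.118% in cKit dKO, 0.0848% and 0.0868% in cKit control, 0.0472% and 0.0513% in Thy1 dKO, and 0.0365% in each Thy1 control library. With 2 libraries a group, whether a library stood apart from its own group in these shares cannot be judged. Neither Ring1 nor Rnf2, whose proteins are the catalytic core of PRC1, was called between dKO and control libraries of either population, and a transcript can keep its level when part of a gene is removed, so the labels were not checked by them. Summed CPM (counts relative to the scaled library size) of 15 core germ cell genes, among them Ddx4 and Dazl, was 652 and 923 in cKit dKO, 2682 and 2118 in cKit control, 2877 and 2539 in Thy1 dKO, and 3072 and 3333 in Thy1 control. Germ cell transcripts were thus present in all 8 libraries and lowest in cKit dKO. In bulk RNA, more cells of a type and more RNA per cell cannot be told apart.

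Of the 10 genes, 5 matched a start site in the RefSeq promoter set (GRCm38.p6), namely Sox8, Cldn11, Fshr, Inha and Rhox5. Promoter sequence is shown for 3 of them because they differ in CpG content, the feature of promoters at which PRC1 gathers, and because Sox8 had a raised transcript level in cKit dKO cells while Cldn11 and Fshr gave no call. Each window holds the 250 bases before the start site, 5′ to 3′ on the strand of the gene, with every CpG in capitals. The windows are chr17:25570687-25570936 on the minus strand for Sox8, chr3:31149670-31149919 on the plus strand for Cldn11 and chr17:89200676-89200925 on the minus strand for Fshr.
Sox8: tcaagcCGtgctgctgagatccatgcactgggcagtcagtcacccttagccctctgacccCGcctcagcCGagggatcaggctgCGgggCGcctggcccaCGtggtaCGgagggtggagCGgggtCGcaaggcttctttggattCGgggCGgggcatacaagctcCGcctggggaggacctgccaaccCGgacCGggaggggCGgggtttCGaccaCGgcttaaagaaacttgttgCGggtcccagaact
Cldn11: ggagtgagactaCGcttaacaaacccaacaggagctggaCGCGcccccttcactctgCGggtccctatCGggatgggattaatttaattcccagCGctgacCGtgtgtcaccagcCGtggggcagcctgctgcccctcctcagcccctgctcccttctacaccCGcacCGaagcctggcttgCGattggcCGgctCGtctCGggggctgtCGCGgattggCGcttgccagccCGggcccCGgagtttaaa
Fshr: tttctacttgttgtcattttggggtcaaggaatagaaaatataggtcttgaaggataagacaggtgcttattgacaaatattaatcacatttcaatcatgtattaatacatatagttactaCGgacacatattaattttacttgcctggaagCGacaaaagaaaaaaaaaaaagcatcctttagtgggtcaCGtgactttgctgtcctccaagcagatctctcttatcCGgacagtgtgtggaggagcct
The Sox8 window held 18 CpG and that of Cldn11 held 19, more than 78.3% and 80.3% of 32817 promoter windows of the same length, for which the median was 6. Those of Fshr, Inha and Rhox5 held 4 each, more than 37.8% of all windows. The start listed for Inha lies inside the deposited interval of the gene, so its window is not the region before the deposited start. For Rhox5 the window lies before the deposited start (37754608), while the gene annotated in GENCODE starts at 37804842. On both strands, GATA motifs were sought as AGATAA or AGATAG, and as TGATAA or TGATAG. They occurred in none of the 5 windows, and in 26.6% of all windows. The E-box CACGTG occurred 1 time in the Sox8 window and 1 time in the Fshr window, and 6.02% of all windows held it. The NR5A1 letters CAAGGTCA were in none of the 5, and in 1.33% of all windows. CpG-dense and CpG-poor promoters thus both occurred in this set, and with 5 windows no relation to expression was drawn.

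Per transcript length, the set was led by 3 genes in every group. On the scale of RPKM (reads per kilobase of transcript, relative to the reads of the library), Clu, which encodes the secreted chaperone clusterin, averaged 90.0 ± 10.3 in cKit dKO, 92.1 ± 1.36 in cKit control, 33.3 ± 3.66 in Thy1 dKO and 24.4 ± 0.41 in Thy1 control (SD, n = 2 each). Gata4 came next, with 37.5 ± 2.16, 26.6 ± 0.21, 15.7 ± 0.57 and 11.3 ± 0.69 RPKM in the same order of groups. Inha, the alpha subunit that turns activins into inhibins, followed with 12.1 ± 2.19, 8.73 ± 1.23, 3.56 ± 0.26 and 2.48 ± 0.23 RPKM. These 3 did not overlap one another in any group. Every other member averaged at most 2.01 RPKM, the mean of Sox9 in cKit dKO.

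The order below the leaders differed between the populations. Sox9 and then Wt1 came after the leaders in both cKit groups, without overlap, while in both Thy1 groups Wt1 and Sox9 overlapped. Amh, which codes for the hormone that removes the Müllerian ducts in males, averaged 1.09 ± 0.32 RPKM in cKit dKO, 0.48 ± 0.37 in cKit control, 0.38 ± 0.06 in Thy1 dKO and 0.16 ± 0.07 in Thy1 control, and it overlapped a neighbour in the order in every group. Fshr, the receptor for follicle-stimulating hormone, lay between 0.167 and 0.289 RPKM on average. Rhox5, the founding member of the X-linked Rhox homeobox cluster, had 29 counts in all 8 libraries together, with 2 and 1 in cKit dKO, 6 and 6 in cKit control, 3 and 2 in Thy1 dKO, and 2 and 7 in Thy1 control. It did not pass the filter on low counts, and no difference in it was detectable at this depth. Gata4 stood above 98.6% of all gene symbols in cKit dKO and above 93.4% in Thy1 control, while Fshr stood above 45.0% and 39.7%, so the set mixed abundant and nearly absent transcripts.

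**Figure D1:**
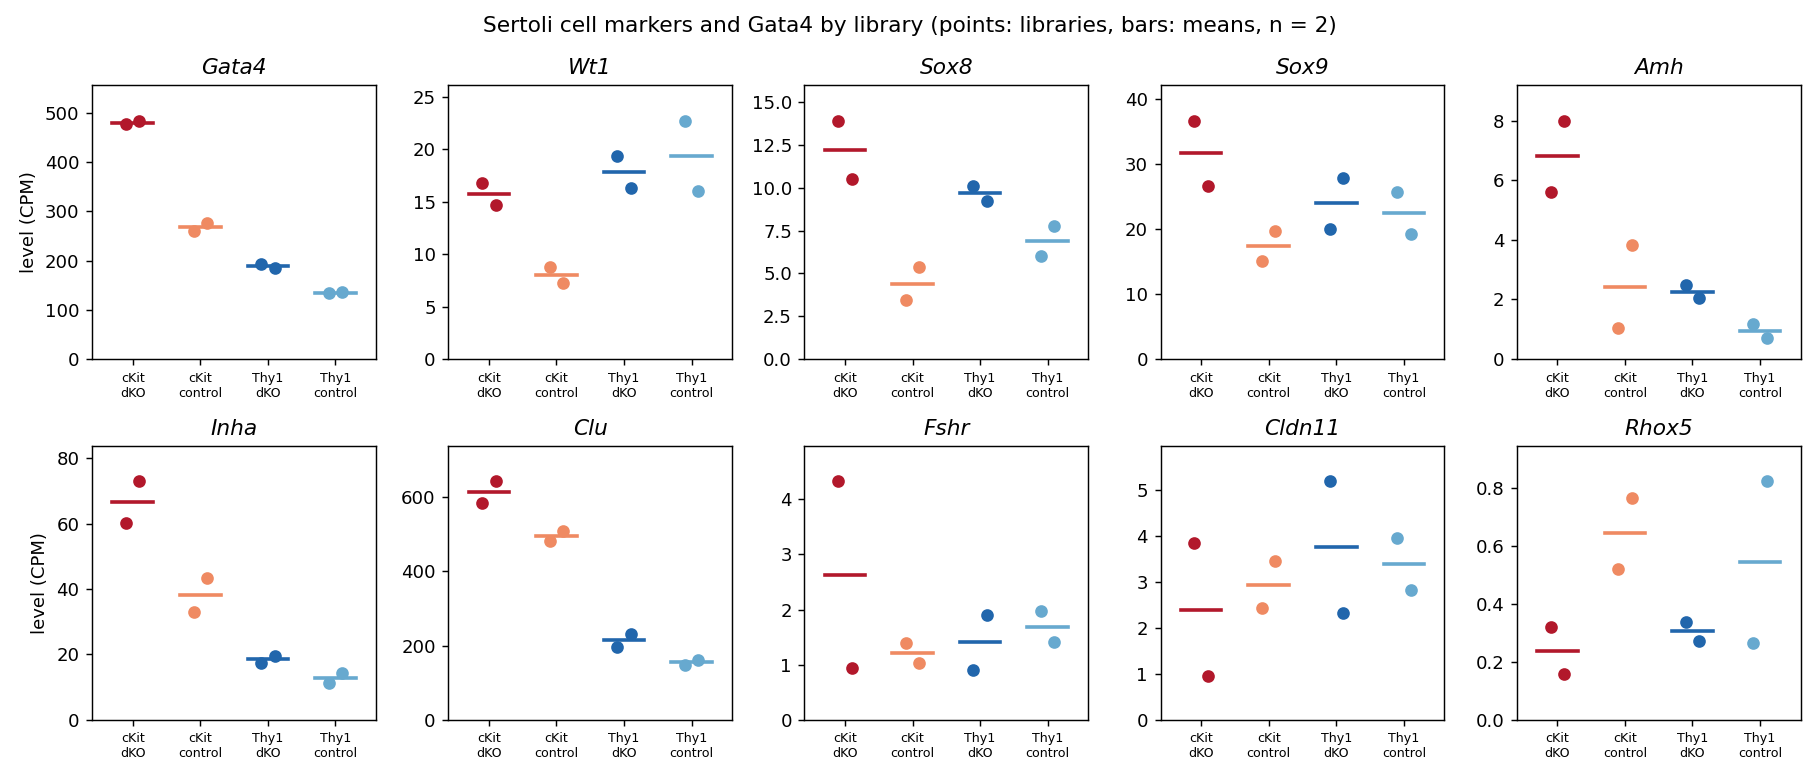
Level of each of the 10 genes in every library, in CPM on a linear axis that starts at 0, with the 4 groups from left to right as cKit dKO, cKit control, Thy1 dKO and Thy1 control; points are libraries and bars are the means of 2 libraries. Gata4, Clu and Inha step down across the groups in that order without overlap, Wt1 is lowest in cKit control, and Fshr and Cldn11 stay at or below 5.18 CPM.

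In cKit+ cells, 5 of the 9 tested genes were higher in dKO libraries, the 4 transcription factors Gata4, Wt1, Sox8 and Sox9 and the inhibin subunit Inha, while no member was called lower by edgeR or DESeq2. Across all genes, 28.6% were called in this comparison, 13.2% higher and 15.4% lower, by edgeR's quasi-likelihood test at a Benjamini-Hochberg adjusted p under 0.05. The median log2 fold change of the 9 was 0.87, beside 0.03 over all genes tested. Without adjustment, 7 of the 9 had p under 0.05, all higher. Scaled on core germ cell genes, which moved the median of all genes by 1.63, 8 members passed, as did 12276 of all 14907 genes. With limma on log2(RPKM + 1) and log2(RPKM + 0.1), 3 and 2 members passed. These 2 scales moved the median of all genes by -0.19 and -0.32, so lower member values there partly follow a shift of all genes.

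Gata4 (mm10, chromosome 14, 63198915 to 63245260, minus strand) stood at 477 and 484 CPM in cKit dKO and at 259 and 277 CPM in cKit control. Both dKO libraries lay above both controls, and the pairs were tight. The log2 fold change was 0.84 ± 0.10 (SE; edgeR adjusted p = 3.85e-05), a ratio of 1.79, and it passed the test whichever library was left out. On the log2(RPKM + 1) and log2(RPKM + 0.1) scales it was 0.48 and 0.49, and also passed by limma.

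Wt1, the zinc finger factor that is needed for Sertoli cells to form and to keep their identity (chromosome 2, 105126529 to 105173614, plus strand), stood at 16.8 and 14.7 CPM in cKit dKO and at 8.75 and 7.27 CPM in cKit control. The groups did not overlap. Its log2 fold change was 0.97 ± 0.26 (edgeR adjusted p = 0.0129), and without cKit control replicate 2 it was 0.90 with an edgeR adjusted p of 0.0557. On the same RPKM scales it was 0.33 and 0.58 and did not pass (limma adjusted p = 0.174 and 0.139).

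The SOX genes of the set belong to the SoxE subfamily and act redundantly in Sertoli cells. Sox8 (chromosome 17, 25565893 to 25570686, minus strand), whose CpG-rich promoter is shown above, stood at 13.9 and 10.5 CPM in cKit dKO and at 3.46 and 5.36 CPM in cKit control, the largest called fold of the set. The log2 fold change was 1.49 ± 0.35 (edgeR adjusted p = 0.00501), and 1.19 without cKit control replicate 1 (edgeR adjusted p = 0.0673). With log2(RPKM + 1) it was 0.48, and passed (limma adjusted p = 0.0173). An annotated antisense gene, 2810468N07Rik, overlaps Sox8 over 329 bases, and as no strand setting is stated its reads cannot be told apart from those of Sox8. Sox9 (chromosome 11, 112782210 to 112787757, plus strand), the switch for Sertoli fate in the fetal testis, stood at 36.7 and 26.7 CPM in cKit dKO and at 15.2 and 19.6 CPM in cKit control. Its log2 fold change was 0.87 ± 0.25 (edgeR adjusted p = 0.0155), and it lost the call without cKit control replicate 1 (0.69, edgeR adjusted p = 0.148) or cKit dKO replicate 1 (0.68, edgeR adjusted p = 0.0821), and on the RPKM scales (0.32 and 0.48, limma adjusted p = 0.203 and 0.209).

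Of the secreted products, Inha (chromosome 1, 75507077 to 75510354, plus strand) stood at 60.2 and 72.9 CPM in cKit dKO and at 32.9 and 43.4 CPM in cKit control. The groups were apart, with a log2 change of 0.81 ± 0.19 (edgeR adjusted p = 0.00515), and 0.62 without cKit control replicate 1 (edgeR adjusted p = 0.0781). It was 0.42 and 0.46 on the RPKM scales and did not pass there (limma adjusted p = 0.0569 and 0.0667). Amh (chromosome 10, 80805248 to 80807648, plus strand) stood at 5.6 and 8.0 CPM in cKit dKO and at 1.04 and 3.83 CPM in cKit control. Both dKO libraries were above both controls, but the controls spread widely and the log2 fold change of 1.52 ± 0.61 did not pass (edgeR adjusted p = 0.0755). The value was 2.74 without cKit control replicate 2. Amh passed with no filter (1.52, edgeR adjusted p = 0.0319) and on the log2(RPKM + 1) scale (0.51, limma adjusted p = 0.0405). Under the germ cell scaling it was 3.04 (edgeR adjusted p = 1.2e-05). Of the 10 other settings, 7 gave no call for Amh. Clu (chromosome 14, 65968483 to 65981545, plus strand) stood at 584 and 642 CPM in cKit dKO and at 481 and 509 CPM in cKit control, without overlap. Its log2 fold change of 0.31 ± 0.11 did not pass (edgeR adjusted p = 0.0511), and on the log2(RPKM + 1) scale the sign turned, to -0.04. That scale moved the median of all genes by -0.19. Clu was at 0.40 without cKit control replicate 2 and at 0.43 without cKit dKO replicate 1. It passed with DESeq2 (0.36, DESeq2 adjusted p = 0.0129), DESeq2 size factors (0.36, edgeR adjusted p = 0.0272) or no filter (0.30, edgeR adjusted p = 0.0406). The replicate block and the germ cell scaling also gave a call. Of the 10 other settings, 3 left Clu uncalled with the same sign, and the RPKM scales turned its sign.

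The receptor and the junction gene gave no call. Fshr (chromosome 17, 88984952 to 89200675, minus strand) stood at 4.32 and 0.94 CPM in cKit dKO and at 1.39 and 1.02 CPM in cKit control, and the groups overlapped. Cldn11 (chromosome 3, 31149920 to 31164326, plus strand), the claudin of the blood-testis barrier, stood at 3.84 and 0.94 CPM in cKit dKO and at 2.42 and 3.45 CPM in cKit control, also with overlap. The 95% intervals of the log2 fold changes reached from -0.54 to 2.74 for Fshr and from -1.67 to 1.10 for Cldn11, so a change of the size seen for Gata4 was not detectable at these counts. Counting libraries alone, 7 of the 10 genes had both cKit dKO libraries above both controls, against a background of 30.8% of all genes, and 1, Rhox5, had both below, against 30% of all genes. Here and below, shares of all genes are over the 14907 tested genes, to which Rhox5 does not belong, though it is counted among the 10.

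Transcripts of other somatic cells and of germ cells moved with this comparison. The 10 Leydig markers summed to 15734 and 18542 CPM in cKit dKO and to 11350 and 13796 CPM in cKit control, with 6 of 10 higher and 1 lower, and none of them was at 0 in any library. Peritubular and stromal markers summed to 4433 and 3477 CPM in cKit dKO and to 2112 and 2038 CPM in cKit control, with 6 of 10 higher. Endothelial markers summed to 402 and 427 CPM in cKit dKO and to 204 and 202 CPM in cKit control, with 4 of 8 higher. Macrophage markers overlapped, at 159 and 561 CPM in cKit dKO and at 192 and 430 CPM in cKit control. Of the 15 core germ cell genes, 12 were lower. The part of these shifts in the values of the Sertoli genes was not tested.

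In Thy1+ cells, Gata4 alone of the 9 tested genes passed, against 0.624% of all genes called and 0.362% called higher. It stood at 193 and 186 CPM in Thy1 dKO and at 134 and 135 CPM in Thy1 control, with a gap between the groups that was many times the spread within them. The log2 fold change was 0.49 ± 0.10 (edgeR adjusted p = 0.0464), a ratio of 1.41. The call sat at the threshold. It was lost without any of the 4 Thy1 libraries, at log2 fold changes of 0.46 to 0.52 and edgeR adjusted p between 0.227 and 0.402, and without cKit control replicate 2 (0.45, edgeR adjusted p = 0.0553). With DESeq2 size factors, library totals, the germ cell scaling, either RPKM scale or the largest transcript entry per symbol, Gata4 did not pass either, at 0.44 to 0.74.

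The secreted products had positive values in Thy1 dKO that did not pass. Clu stood at 196 and 233 CPM in Thy1 dKO and at 149 and 160 CPM in Thy1 control, with a log2 change of 0.47 ± 0.11 (edgeR adjusted p = 0.0686). The groups were apart, and Clu was at 0.43 without either cKit dKO library. It passed with DESeq2 (0.47, DESeq2 adjusted p = 0.011), no filter (0.47, edgeR adjusted p = 0.00752) or only the 4 Thy1 libraries (0.44, edgeR adjusted p = 0.0172). Of the 10 other settings, 6 gave no call for Clu. Inha stood at 17.5 and 19.6 CPM in Thy1 dKO and at 11.3 and 14.2 CPM in Thy1 control, with a log2 change of 0.53 ± 0.21 (edgeR adjusted p = 0.269). Amh stood at 2.48 and 2.04 CPM in Thy1 dKO and at 1.18 and 0.70 CPM in Thy1 control, with a log2 change of 1.26 ± 0.70 (edgeR adjusted p = 0.45). Both dKO libraries lay above both controls for each of these products.

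Among the transcription factors, Sox8 stood at 10.1 and 9.26 CPM in Thy1 dKO and at 6.05 and 7.75 CPM in Thy1 control, with a log2 change of 0.49 ± 0.34 (edgeR adjusted p = 0.563). Wt1 stood at 19.4 and 16.3 CPM in Thy1 dKO and at 22.7 and 16.1 CPM in Thy1 control, and Sox9 at 20.1 and 27.9 CPM in Thy1 dKO and at 25.6 and 19.2 CPM in Thy1 control. Both overlapped, with log2 fold changes of -0.12 and 0.09. Fshr and Cldn11 overlapped too, at -0.28 and 0.16. In all, 5 of the 10 genes had both Thy1 dKO libraries above both controls, beside 28.5% of all genes, and none had both below, beside 22.8% of all genes. The median of the 9 was 0.47, beside 0.03 over all genes. In the same comparison 2 of 10 Leydig markers, 1 of 8 endothelial markers were called. Of the 15 germ cell genes edgeR called none, with 5 lower at an unadjusted p under 0.05 and 2 lower by DESeq2. The Leydig sum was 3834 and 4323 CPM in Thy1 dKO and 2640 and 3344 CPM in Thy1 control. The endothelial sum was 467 and 477 CPM in Thy1 dKO and 320 and 319 CPM in Thy1 control. Macrophage markers, none of them called, summed to 1371 and 1488 CPM in Thy1 dKO and to 974 and 1103 CPM in Thy1 control. Peritubular and stromal sums overlapped, at 8318 and 8606 CPM in Thy1 dKO and at 9914 and 7224 CPM in Thy1 control. The part of these cell types in the Gata4 value was not tested.

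**Figure D2:**
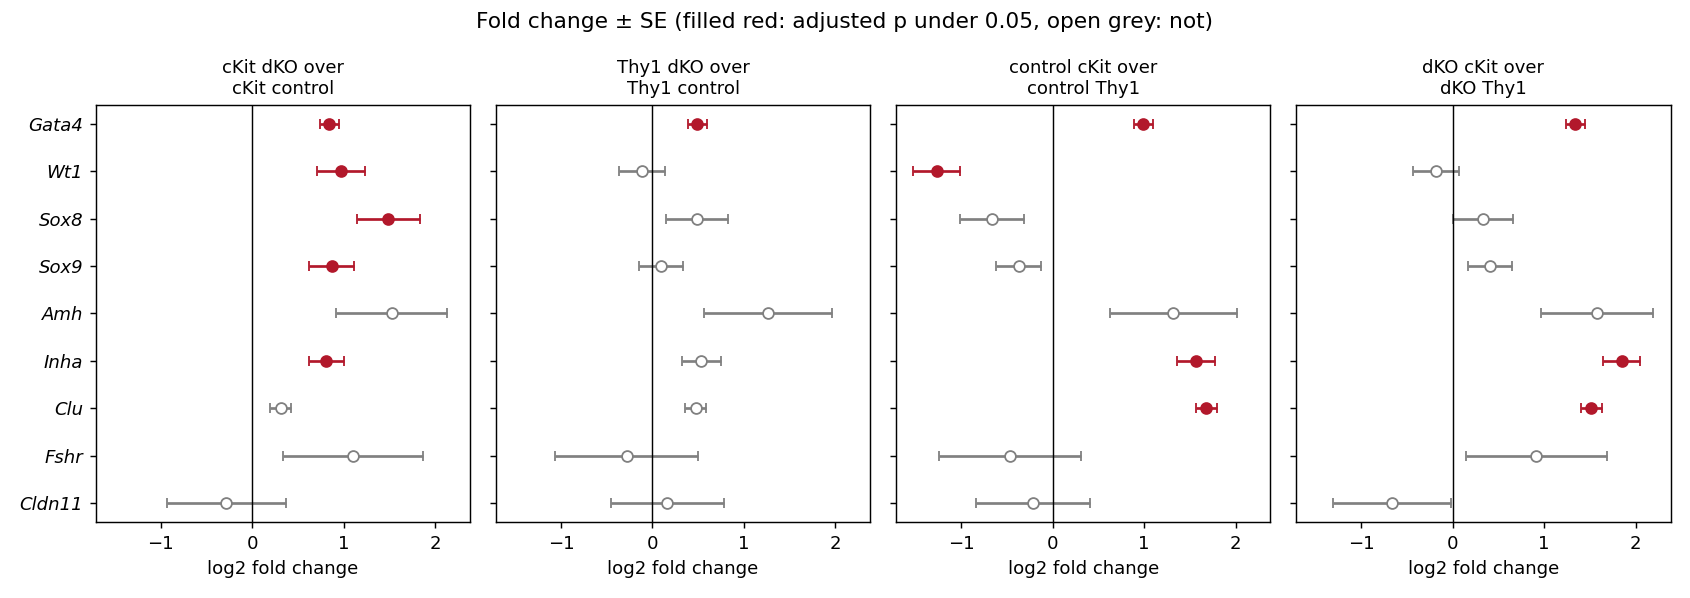
Log2 fold changes (x axis) of the 9 tested genes in 4 comparisons, from left to right cKit dKO over cKit control, Thy1 dKO over Thy1 control, cKit control over Thy1 control, and cKit dKO over Thy1 dKO; bars are SE, filled red points passed edgeR's test at an adjusted p under 0.05, open grey points did not, and the vertical line marks 0. For cKit dKO 5 points are filled and above 0, for Thy1 dKO only that of Gata4 is, and Amh, Fshr and Cldn11 have the widest bars.

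The dKO effects in cKit+ and Thy1+ cells were compared directly. None of the 9 genes passed edgeR's test of the difference, against 5.92% of all genes (1.86% positive and 4.06% negative), and none passed DESeq2's. Without adjustment, 3 had p under 0.05, namely Gata4 (0.35 ± 0.15 on the log2 scale, edgeR adjusted p = 0.184), Wt1 (1.09 ± 0.36, edgeR adjusted p = 0.0952) and Sox9 (0.78, edgeR adjusted p = 0.214). The other differences were 0.996 for Sox8 (edgeR adjusted p = 0.257), 1.38 for Fshr, 0.28 for Inha, 0.26 for Amh, -0.16 for Clu and -0.45 for Cldn11. A larger effect in cKit+ cells was therefore not shown for any member, although 5 genes passed there and 1 in Thy1+ cells. Scaled on core germ cell genes, 7 passed, as did 9307 of all 14907 genes, 9279 of them positive. That scaling moved the median difference of all genes by 1.38.

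The populations themselves differed. Among controls, Clu, Gata4 and Inha were higher and Wt1 was lower in cKit+ than in Thy1+ cells, 4 of 9 genes against 19.7% of all genes called, 9.46% higher and 10.3% lower. Clu led with a log2 change of 1.68 ± 0.12 (edgeR adjusted p = 9.78e-08), followed by Inha with 1.57 ± 0.21 (edgeR adjusted p = 5.13e-05) and Gata4 with 0.99 ± 0.10 (edgeR adjusted p = 5.72e-06). Wt1, at 8.75 and 7.27 CPM in cKit control and 22.7 and 16.1 CPM in Thy1 control, fell by 1.27 ± 0.26 in log2 units (edgeR adjusted p = 0.00247). Its call was lost without Thy1 control replicate 1 (-0.997, edgeR adjusted p = 0.0538) and under the germ cell scaling (-0.87, edgeR adjusted p = 0.0722). Sox8 (-0.66, edgeR adjusted p = 0.215), Sox9 (-0.37), Amh (1.32, edgeR adjusted p = 0.216), Fshr (-0.47) and Cldn11 (-0.21) did not pass. Both cKit control libraries lay above both Thy1 controls for 3 of the 10 genes and below them for 3, against 29.9% and 29.8% of all genes.

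Among dKO libraries, Inha (1.85 ± 0.20, edgeR adjusted p = 7.36e-06), Clu (1.52 ± 0.12, edgeR adjusted p = 2.93e-07) and Gata4 (1.34 ± 0.10, edgeR adjusted p = 3.47e-07) were again higher in cKit+ cells, 3 of 9 genes against 34.8% of all genes called, 14.8% higher and 20% lower. Counting libraries alone, 5 of the 10 had both cKit dKO libraries above both Thy1 dKO libraries and none had both below, against 29.3% and 38.2% of all genes. Wt1 had no call there, at 16.8 and 14.7 CPM in cKit dKO and 19.4 and 16.3 CPM in Thy1 dKO (log2 fold change -0.18). Sox8 (0.33), Sox9 (0.40), Fshr (0.92) and Cldn11 (-0.66) did not pass either. Amh missed the threshold with 1.58 ± 0.62 (edgeR adjusted p = 0.0591). Its value was 1.58 without cKit control replicate 1, 1.66 without cKit control replicate 2 and 1.90 without cKit dKO replicate 1. It passed with no filter (1.58, edgeR adjusted p = 0.0218) or with only the 4 dKO libraries (1.66, edgeR adjusted p = 0.0234). So it did on the log2(RPKM + 1) scale (0.59, limma adjusted p = 0.0221). Under the germ cell scaling it was 3.36 (edgeR adjusted p = 2e-06). Of the 10 other settings, 6 gave no call for Amh.

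The cell type markers split in the same comparisons. All 10 Leydig markers were higher in cKit dKO than in Thy1 dKO and 9 of 10 in cKit control than in Thy1 control. Hsd3b1, a steroid dehydrogenase, stood at 10327 and 12560 CPM in cKit dKO, 7349 and 8054 CPM in cKit control, 2493 and 2828 CPM in Thy1 dKO, and 1641 and 1907 CPM in Thy1 control. Peritubular and stromal markers went the other way, with 10 of 10 lower in cKit control and 8 of 10 in cKit dKO, and so did 8 of 9 macrophage markers in each. Their summed levels ran from 2038 to 4433 CPM in the cKit groups and from 7224 to 9914 CPM in the Thy1 groups for peritubular genes. The part of these cell types in the values of Clu, Inha and Gata4 was not tested.

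**Figure D3:**
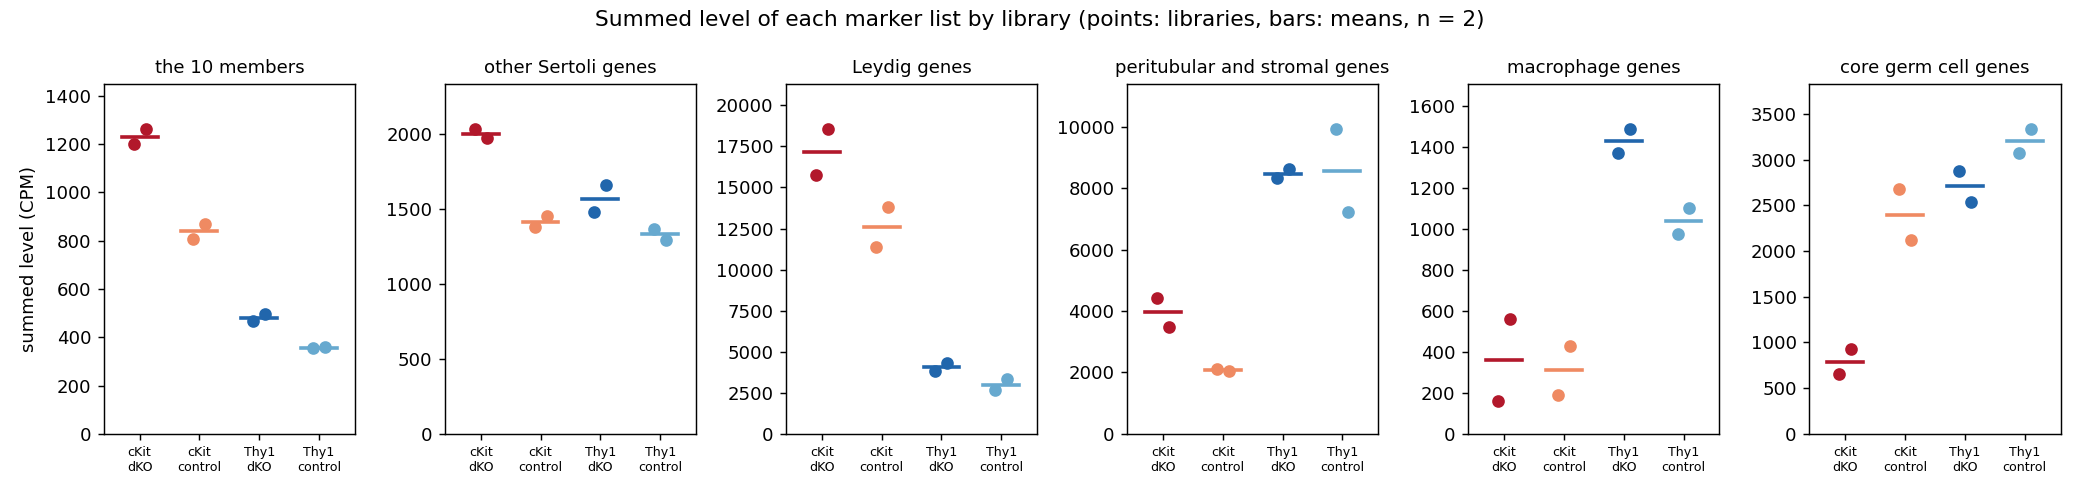
Summed CPM (linear axis from 0) of 6 marker lists in each library; points are libraries, bars are means of 2 libraries, and the groups run in the order cKit dKO, cKit control, Thy1 dKO and Thy1 control. The sum over the 10 members and the Leydig sum fall across the groups in that order, peritubular and macrophage sums are higher in the Thy1 groups than in the cKit groups, and the germ cell sum is lowest in cKit dKO.

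Gata4 was also set against the other markers within each library. Its log2 ratio to the summed CPM of 28 other Sertoli genes was -2.09 and -2.03 in cKit dKO, -2.41 and -2.39 in cKit control, -2.94 and -3.16 in Thy1 dKO, and -3.35 and -3.26 in Thy1 control. The dKO groups lay above their controls, by 0.34 in cKit+ and by 0.26 in Thy1+ cells, the second of which was 0.15 without Thy1 dKO replicate 1. With 2 libraries a group, the smallest p an exact permutation test can give is 0.333, and no test was run on these ratios. Vim, Kitl and Ctsl, which many cells express, make up much of that sum. Without them the difference was 0.38 for cKit dKO against control and 0.15 for Thy1 dKO against control, while the one between cKit control and Thy1 control, 0.91, turned to -0.12.

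Against the summed Leydig markers, a ratio added after the values were seen, the log2 ratio of Gata4 was -5.05 and -5.26 in cKit dKO, -5.45 and -5.64 in cKit control, -4.31 and -4.54 in Thy1 dKO, and -4.30 and -4.63 in Thy1 control. The cKit groups did not overlap, with a difference of 0.39, and the Thy1 groups overlapped, with a difference of 0.04. Between controls the ratio was lower in cKit+ than in Thy1+ cells, by 1.08. For Inha the dKO and control ratios to the Leydig sum differed by 0.36 in cKit+ and by 0.09 in Thy1+ cells, without overlap in either. Whether these differences depend on the population was not tested. Hsd3b1 alone averaged 11443 CPM in cKit dKO, 7702 in cKit control, 2661 in Thy1 dKO and 1774 in Thy1 control. It made up much of the Leydig sum, and the ratios were not taken without it.

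Of 28 further Sertoli genes, 25 were tested. In cKit dKO against control 9 were higher and 1 lower, with a median of 0.66, and in Thy1 dKO against control only Nr5a1 was called. Gdnf, the niche factor that maintains spermatogonial stem cells, stood at 87.4 and 79.4 CPM in cKit dKO and at 38.4 and 43.5 CPM in cKit control, with a log2 change of 1.03 ± 0.17 (edgeR adjusted p = 0.00039). Kitl, the ligand of Kit, rose by 0.67 ± 0.12 (edgeR adjusted p = 0.000974) and the intermediate filament gene Vim by 0.66 ± 0.12 (edgeR adjusted p = 0.000714). Both calls were lost on the log2(RPKM + 1) and log2(RPKM + 0.1) scales, at 0.26 and 0.31 for Kitl (limma adjusted p = 0.139 and 0.142) and 0.30 and 0.31 for Vim (limma adjusted p = 0.13 and 0.128). Dmrt1, which maintains male fate in Sertoli cells and is also expressed by spermatogonia, stood at 26.6 and 42.7 CPM in cKit dKO and at 100.03 and 92.3 CPM in cKit control. It fell by 1.47 ± 0.18 in log2 units (edgeR adjusted p = 3.92e-05), and its value was 0.11 when scaled on core germ cell genes. Nr5a1, the steroidogenic factor shared by Sertoli and Leydig cells, stood at 130 and 126 CPM in Thy1 dKO and at 80.9 and 83.8 CPM in Thy1 control, with a log2 change of 0.64 ± 0.11 (edgeR adjusted p = 0.0202). That call was lost without any of the 4 Thy1 libraries, at 0.61 to 0.67, and under the germ cell scaling, on either RPKM scale or with the largest entry per symbol, at 0.56 to 0.88.

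In cKit control against Thy1 control, 7 of the 25 were higher and 3 lower, and in cKit dKO against Thy1 dKO 10 were higher and 3 lower. Nr5a1 (1.93 and 1.81), the defensin gene Defb19 (1.86 and 1.96) and the gap junction gene Gja1 (1.42 and 1.496) were higher in both, in log2 units. Vim was lower among controls (-1.27 ± 0.12, edgeR adjusted p = 1.49e-06), and Gdnf was higher among dKO libraries (2.04 ± 0.18, edgeR adjusted p = 1.07e-06).

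The relatives and cofactors of GATA4 were tested as a list of 7 GATA and FOG genes, 6 with enough reads. In cKit dKO against control Zfpm2, the FOG2 cofactor that binds GATA4, and Gata3 were higher. Zfpm2 stood at 9.61 and 13.2 CPM in cKit dKO and at 4.94 and 5.61 CPM in cKit control, with a log2 change of 1.12 ± 0.27 (edgeR adjusted p = 0.00614), which without cKit control replicate 1 was 1.02 (edgeR adjusted p = 0.0602). It did not pass with only the 4 cKit libraries (1.11, edgeR adjusted p = 0.0516) or on the log2(RPKM + 1) and log2(RPKM + 0.1) scales (0.24 and 0.62, limma adjusted p = 0.227 and 0.145). Gata3 stood at 1.12 and 2.98 CPM in cKit dKO and at 0.17 and 0.38 CPM in cKit control (2.89 ± 0.86, edgeR adjusted p = 0.0204), and it lost the call without cKit control replicate 1 (2.37, edgeR adjusted p = 0.147) or cKit dKO replicate 2 (2.07, edgeR adjusted p = 0.153), with only the 4 cKit libraries (2.88, edgeR adjusted p = 0.0799) and on the RPKM scales (0.18 and 1.01, limma adjusted p = 0.147 and 0.0745). In Thy1 dKO against control no gene of this list passed in edgeR, also without adjustment, or in DESeq2. Zfpm2 was lower in cKit+ than in Thy1+ cells among controls (-2.10 ± 0.26, edgeR adjusted p = 2.71e-05) and among dKO libraries (-1.22 ± 0.25, edgeR adjusted p = 0.00136), the second of which turned to 0.55 when scaled on core germ cell genes. Gata4 thus moved opposite to its cofactor between the populations and in the same direction in cKit dKO.

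The hormone pathway of Amh and Inha was followed through 17 genes, all tested. In cKit dKO against control 5 were higher and 3 lower, and in Thy1 dKO against control edgeR called none, with 2 higher at an unadjusted p under 0.05 and 2 higher by DESeq2. Inhba, the activin beta A subunit that pairs with inhibin alpha, stood at 337 and 256 CPM in cKit dKO and at 107 and 104 CPM in cKit control, with a log2 change of 1.49 ± 0.14 (edgeR adjusted p = 6.29e-06). Among controls Inhba was lower in cKit+ than in Thy1+ cells (-1.59 ± 0.14, edgeR adjusted p = 1.29e-06), opposite to Inha. Its means were 387 CPM in Thy1 dKO and 317 CPM in Thy1 control. Tgfbr3, betaglycan, the coreceptor through which inhibin acts, stood at 908 and 1013 CPM in cKit dKO and at 477 and 532 CPM in cKit control (0.93 ± 0.11, edgeR adjusted p = 2.52e-05). Smad3, which relays activin signals, rose by 0.54 ± 0.14 (edgeR adjusted p = 0.0106), a call lost without cKit control replicate 1 (0.46, edgeR adjusted p = 0.0903) and on the RPKM scales (0.15 and 0.19, limma adjusted p = 0.471 and 0.457). The activin receptor Acvr2b fell by 1.32 ± 0.38 (edgeR adjusted p = 0.0182), a call lost without cKit control replicate 1 (-1.08, edgeR adjusted p = 0.133) or cKit dKO replicate 2 (-1.17, edgeR adjusted p = 0.0716) or with only the 4 cKit libraries (edgeR adjusted p = 0.0523), and its value was 0.34 when scaled on core germ cell genes. Amhr2, the receptor of Amh, was higher in cKit dKO than in Thy1 dKO (1.97 ± 0.38, edgeR adjusted p = 0.000982), at 16.6 and 12.4 CPM in cKit dKO against 2.93 and 4.49 CPM in Thy1 dKO. Fst, the activin antagonist follistatin, was lower in cKit+ than in Thy1+ cells among controls (-2.59 ± 0.51, edgeR adjusted p = 0.0019) and among dKO libraries (-2.38 ± 0.53, edgeR adjusted p = 0.00275). Under the germ cell scaling the value among dKO libraries was -0.62 (edgeR adjusted p = 0.385).

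Cldn11 had 15 tight junction partners on its list, 12 of them tested. In cKit dKO against control 2 were higher, Cldn1 (0.95 ± 0.14, edgeR adjusted p = 0.000142) and Jam2 (0.74 ± 0.16, edgeR adjusted p = 0.00297). Jam2 was at 0.31 and 0.39 on the RPKM scales and did not pass there (limma adjusted p = 0.164 and 0.184). Marveld2, the tricellular junction protein tricellulin (-2.30 ± 0.30, edgeR adjusted p = 6.05e-05), and Cgn, the scaffold cingulin (-1.05 ± 0.25, edgeR adjusted p = 0.00631, and 0.61 when scaled on core germ cell genes), were lower. In Thy1 dKO against control F11r, junctional adhesion molecule A, was the 1 gene called, at 26.7 and 20.8 CPM in Thy1 dKO and 41.0 and 52.2 CPM in Thy1 control (-0.97 ± 0.19, edgeR adjusted p = 0.0338). It lost the call without any of the 4 Thy1 libraries, at -0.78 to -1.16, and under the germ cell scaling, on either RPKM scale or with the largest entry per symbol, at -0.73 to -0.97.

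Of the 11 other genes of the Rhox cluster, 5 were tested. Rhox13, a germ cell gene of the cluster, stood at 2.72 and 3.92 CPM in cKit dKO and at 12.0 and 8.80 CPM in cKit control, with a log2 change of -1.65 ± 0.38 (edgeR adjusted p = 0.00441) that was -1.40 without cKit control replicate 1 (edgeR adjusted p = 0.0533) and -0.04 when scaled on core germ cell genes. Rhox8, a Sertoli gene of the cluster, was higher in cKit dKO than in Thy1 dKO (1.19 ± 0.34, edgeR adjusted p = 0.0123), a call lost without Thy1 dKO replicate 1 (1.29, edgeR adjusted p = 0.0589), Thy1 dKO replicate 2 (1.11, edgeR adjusted p = 0.0863) or cKit dKO replicate 1 (1.03, edgeR adjusted p = 0.0543). In the same comparison Rhox1 was lower (-2.84 ± 0.70, edgeR adjusted p = 0.00529), a call lost under the germ cell scaling (-1.06, edgeR adjusted p = 0.226).

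Of 8 granulosa fate genes, those of the opposite, ovarian fate, 5 were tested, and Foxl2 and Cyp19a1 were among those with too few reads. Nr5a2, a nuclear receptor of granulosa cells, stood at 1.28 and 1.57 CPM in cKit dKO and at 8.31 and 5.87 CPM in cKit control, with a log2 change of -2.31 ± 0.39 (edgeR adjusted p = 0.00049). It did not pass under the germ cell scaling (-0.69, edgeR adjusted p = 0.218). Rspo1, a WNT agonist of the fetal ovary, was lower in cKit+ than in Thy1+ cells among controls (-2.24 ± 0.30, edgeR adjusted p = 6.38e-05) and among dKO libraries (-2.16 ± 0.32, edgeR adjusted p = 0.000124), the second of which was -0.31 under the germ cell scaling (edgeR adjusted p = 0.479).

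Across the 8 libraries, 5 of 10231 genes with a mean log2 CPM of at least 3 followed Gata4 most closely on the log2 CPM scale. They were Itpkb, an inositol trisphosphate kinase gene (Pearson r = 0.998), the magnesium transporter gene Slc41a1 (0.998), the fatty acid oxidation genes Acaa2 (0.997) and Ech1 (0.994), and Smpdl3b (0.996), a phosphodiesterase gene. The libraries fall into 4 groups, so these values describe the order of the group levels. Itpkb stood at 118 and 132 CPM in cKit dKO, 62.4 and 69.0 CPM in cKit control, 46.3 and 45.7 CPM in Thy1 dKO, and 31.7 and 29.9 CPM in Thy1 control. All 5 were called higher in cKit dKO than in cKit control, with log2 fold changes of 0.61 to 0.93. In Thy1 dKO their values of 0.27 to 0.58 did not pass. The genes were picked for their likeness to Gata4 over these same libraries, so their changes follow from that choice and are no separate result. Within the set, Inha (0.979), Clu (0.94) and Amh (0.865) were closest to Gata4, while Sox9 (0.398), Sox8 (0.35) and Fshr (0.167) were far, and Wt1 (-0.322) and Cldn11 (-0.438) were negative.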

How the data were processed

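RNA of 8 libraries (4 groups of 2) was amplified with the NuGEN Ovation v2 system and made into Nextera XT libraries, per the labels' protocols, and aligned with STAR 2.4.2a to mm10, per the submitters' processing notes. The counting tool and its strand setting are not given in the sources used here. The deposited tables give whole-number read counts and RPKM values for 26099 transcript entries, per the file headers. The deposited RPKM values were used for levels between genes and for alternative tests, and all other results come from counts.

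Counts were summed per symbol and tested with edgeR 4.0.16 in R 4.3.3: filterByExpr by group (14907 genes), TMM scaling, 1 mean per group over all 8 libraries (4 residual degrees of freedom), two-sided quasi-likelihood tests and Benjamini-Hochberg adjustment over all genes tested, with a threshold of 0.05. Standard errors are of log2 fold changes. CPM uses TMM-scaled library totals. The model was tested on simulated data. Alternatives were other scalings, no filter, DESeq2 1.42.0, limma 3.58.1 on log2(RPKM + 1) and log2(RPKM + 0.1), a replicate block, the largest entry per symbol, only the 4 libraries compared, and each library left out.

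The 10 genes and the other lists were chosen with earlier results of these data known. The text names the 9 tested members in each comparison and gives Rhox5 by its counts. Genes of related lists were taken from the up to 4 called genes of smallest adjusted p per list and comparison, not all of which are given. The 5 genes set beside Gata4 were those most like it by Pearson r on log2 CPM. Further genes were named after their values were seen (Hsd3b1, Foxl2 and Cyp19a1). Motifs were sought in RefSeq promoters of GRCm38.p6, and overlapping genes in GENCODE. Amplified reads carry no molecular identifiers, so counts are not independent molecules.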

Additional observations from a re-analysis of the deposited data

Results flagged for a closer look

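The effect of dKO differed between cKit+ and Thy1+ cells by edgeR's test of the difference for 4 of the named genes of related lists, and for none of the 9 tested members. Across all genes, 5.92% were called in this test. The 4 were 1 of 25 tested Sertoli genes, 1 of 17 hormone pathway genes, 1 of 12 tight junction genes and 1 of 5 granulosa fate genes. Of the 6 GATA and FOG genes and the 5 Rhox genes tested, 0 were called. The difference (cKit minus Thy1, log2) was -1.28 ± 0.25 for Dmrt1 (edgeR adjusted p = 0.0078), which was -1.25 without Thy1 control replicate 1 (edgeR adjusted p = 0.051), -1.21 without Thy1 dKO replicate 1 (edgeR adjusted p = 0.0604) and 0.06 when scaled on core germ cell genes. It was 1.20 ± 0.20 for Inhba (edgeR adjusted p = 0.00312), and 0.83 on the log2(RPKM + 1) scale (limma adjusted p = 0.0547). It was 1.17 ± 0.27 for F11r (edgeR adjusted p = 0.0202), which did not pass without Thy1 control replicate 2, either Thy1 dKO replicate or cKit control replicate 1, at 0.98 to 1.36, with the largest entry per symbol (1.17, edgeR adjusted p = 0.0618), or on the log2(RPKM + 1) and log2(RPKM + 0.1) scales (0.66 and 0.82, limma adjusted p = 0.0865 and 0.079). It was -2.52 ± 0.49 for Nr5a2 (edgeR adjusted p = 0.00805), and -2.53 without Thy1 dKO replicate 1 (edgeR adjusted p = 0.0507) and -1.14 when scaled on core germ cell genes (edgeR adjusted p = 0.134). Groups of 2 libraries are too small to look for single libraries that stand apart.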

How the results depend on the processing

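The count of members called in Thy1 dKO against control was 1. It was 0 with DESeq2 size factors, library totals, scaling on core germ cell genes, either RPKM fit or the largest entry per symbol, and 2 with DESeq2, no filter, the replicate block or only the 4 libraries compared. Leaving out 1 library gave 0 to 2. In cKit dKO against control, 5 were called, 8 when scaled on core germ cell genes, 3 with log2(RPKM + 1), 2 with log2(RPKM + 0.1), and 2 (without cKit control replicate 1) to 6 with a library left out. DESeq2 called 6 in cKit dKO against control, and Amh and Clu also passed there with no filter (edgeR adjusted p = 0.0319 and 0.0406). In dKO cKit against Thy1 the count was 3, and 8 when scaled on core germ cell genes. For the difference of dKO effects it was 0, and 7 under that scaling, which moved the median of all genes by 1.63 (cKit dKO), 0.24 (Thy1 dKO), 0.43 (control cKit against Thy1) and, between the populations in dKO, 1.82. The number of all genes called was 4259 in cKit dKO and 93 in Thy1 dKO, and with other settings it ran from 3151 to 12276 and from 6 to 961. Under the germ cell scaling it was 12276 of 14907 in cKit dKO, 12133 in dKO cKit against Thy1 and 9307 for the difference.

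Signs also turned under the germ cell scaling, in log2 units: in Thy1 dKO Wt1 0.11; in cKit dKO Cldn11 1.41, Dmrt1 0.11, Acvr2b 0.34 and Cgn 0.61; in control cKit against Thy1 Sox9 0.0693, Cldn11 0.23 and Tjp1 0.0943; in dKO cKit against Thy1 Wt1 1.65, Cldn11 1.27, Zfpm2 0.55, Gata6 0.53, Rhox13 0.65, Rhox2a 0.13, Tjp1 1.37 and Marveld2 0.0092; and in the difference Clu 1.20, Cldn11 1.05 and Dmrt1 0.0627. On the RPKM scales Clu in cKit dKO was -0.0375 and -0.0379, Cldn11 in control cKit against Thy1 was 0.0062 and 0.0236, and the difference of Inha was -0.0464 with log2(RPKM + 0.1). The RPKM scales moved the median of all genes by -0.19 and -0.319 in cKit dKO and by 0.131 and 0.215 in control cKit against Thy1. For the difference, log2(RPKM + 0.1) moved it by -0.299. With a library left out, signs turned for values that had not passed, in Thy1 dKO for Wt1 (-0.35 to 0.15), Sox9 (-0.16 to 0.32), Fshr (-0.89 to 0.18) and Cldn11 (-0.54 to 0.62), in cKit dKO for Fshr (-0.31 to 1.85) and Cldn11 (-1.56 to 0.44), in control cKit against Thy1 for Cldn11 (-0.48 to 0.0479), in dKO cKit against Thy1 for Fshr (-0.46 to 1.70) and Cldn11 (-1.91 to 0.0891), and in the difference for Amh (-0.43 to 1.52) and Cldn11 (-1.69 to 0.31). Without Vim, Kitl and Ctsl, the log2 ratio of Gata4 to other Sertoli genes differed by 0.38 in cKit dKO, -0.12 between controls and 0.11 between dKO groups, and that of Sox9 by -0.83 between dKO groups. The cause of these changes was not tested.

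Samples that share a replicate number did not deviate together (correlations of deviations -0.05 to 0.05), so the numbers were not taken as pairs; under the replicate block Clu passed in Thy1 dKO (edgeR adjusted p = 0.0481) and in cKit dKO (0.0384). Fshr, Cldn11, Amh and Rhox5 had few counts; this limits their precision.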
